A study of Rattus norvegicus with 26 samples.

Results

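Serotonin receptor transcripts were followed across the 8 groups of a rat spinal cord injury (SCI) series: 8 genes (Htr2a, Htr2b, Htr2c, Htr1a, Htr1b, Htr1d, Htr3a and Htr7) of 32883 in the count table. They were chosen by name. Htr2b was picked because it was lower in treated than in untreated cords at 1 week post-transplantation (wpt), and the other 7 belong to the same receptor families. RNA sequencing was performed on poly(A) RNA of 5 mm cord segments centered at the lesion, in 26 libraries from wild type female Sprague-Dawley rats of postnatal day 70 and 250 g. The Intact group (4 libraries) held intact or sham rats, and sub-SCI (3 libraries) held rats taken 7 days after a clip compression of 60 g for 1 min at T10. The injured rats of the other groups received mesenchymal stem cells of human umbilical cord (+MSC) or phosphate-buffered saline (+PBS) intrathecally 7 days after injury. They were sampled at 1 wpt (+PBS-1w and +MSC-1w, 3 libraries each), 2 wpt (+PBS-2w, 2, and +MSC-2w, 3) and 4 wpt (+PBS-4w and +MSC-4w, 4 each). The study's methods state that rats received cyclosporin A daily, an immunosuppressant given against rejection of the human cells. Whether the Intact rats received it is not stated. The transplants are a xenograft, so only rat transcripts are described.

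Serotonin reaches the spinal cord in axons that descend from brainstem neurons, and it sets the excitability of motor neurons and spinal interneurons. Its receptors are all coupled to G proteins except Htr3a, which forms an ion channel. The Htr2 receptors act through Gq and phospholipase C, the Htr1 receptors through Gi and inhibition of adenylyl cyclase, and Htr7 through Gs. Htr2a and Htr2c are receptors of neurons, whereas Htr2b is better known from heart valves, gut and vessels, and is also made by microglia and macrophages.

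Levels are given as CPM (TMM-scaled reads of a gene relative to the library total), with mean ± SD. Genes were called differentially expressed (DEGs) at a log2 fold change beyond 1 in either direction and an adjusted p under 0.01. The test was the quasi-likelihood F test of edgeR, and p-values were adjusted by Benjamini-Hochberg over the 17990 genes tested. Among the members, 7 were tested and Htr7 was too low to pass the filter. Total counts lay between 19496602 and 43468509, and a count of 0 in a library allows a level of up to 0.0656 to 0.164 CPM, with counting error only. One library stood apart over all genes. The chi-square per degree of freedom between +PBS-4w replicate 1 and the other 3 +PBS-4w libraries was 160.5 to 246.4, beside 26.1 to 37.7 among those 3 and 5.67 to 141.4 between libraries of the other groups. Fold changes of +MSC-4w against +PBS-4w, receptor shares and the neuron marker sum are given without it where they move. In bulk tissue, fewer cells of a type and less RNA per cell cannot be told apart.

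Htr2b was nearly silent in uninjured cord and was the leading member in sub-SCI cords. In Intact libraries 1 to 4 it stood at 0.655, 0.641, 0.509 and 0.836 CPM (11 to 22 reads), and in the sub-SCI libraries at 33.1, 46.8 and 55.7 CPM (1137 to 1643 reads). The lowest sub-SCI library was far above the highest Intact one, and 32.9% of genes tested were higher in every sub-SCI library than in any Intact library. The log2 fold change was 6.08 (SE 0.30, 67.5-fold higher, edgeR adjusted p = 3.56e-12). Of all genes tested, 16.6% were DEGs higher in sub-SCI.

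**Figure D1:**
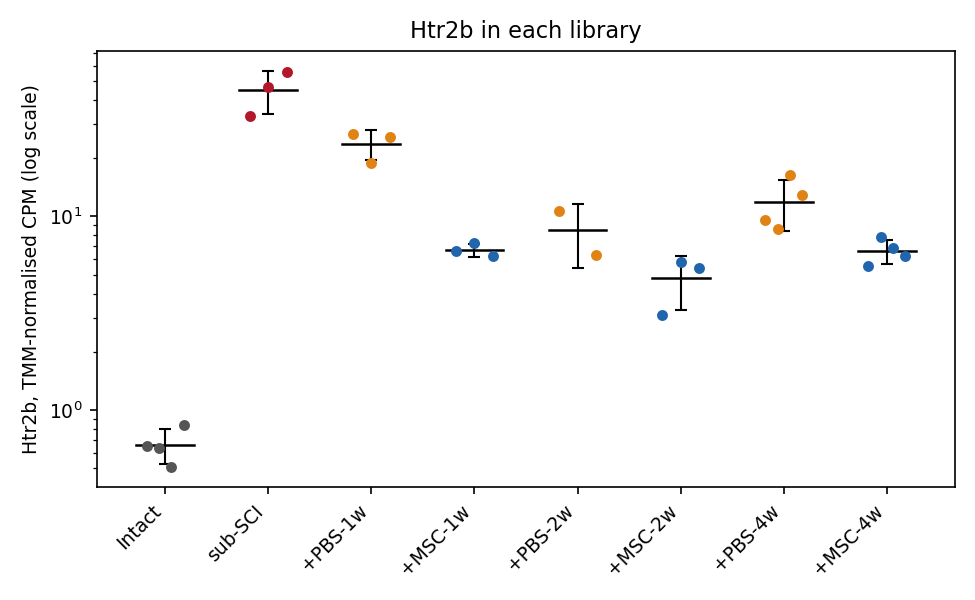
Htr2b level in each of the 26 libraries (TMM-normalised CPM, log axis) by group; points are libraries, horizontal lines are group means and bars are SD. The Intact libraries lie below 1 CPM and the sub-SCI libraries between 33.1 and 55.7. In each week the +MSC libraries lie below all +PBS libraries, and the 1 wpt comparison is the one by which Htr2b was chosen.

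Untreated cords at later times had lower levels than sub-SCI cords, without reaching the Intact range. It was 26.8, 19.0 and 25.6 CPM in +PBS-1w, 10.7 and 6.31 in +PBS-2w, and 9.61, 8.64, 16.4 and 12.9 in +PBS-4w. The +PBS-4w libraries were all below the sub-SCI libraries (log2 fold change -1.93, SE 0.24, adjusted p = 1.27e-05) and all above the Intact libraries (4.15, SE 0.28, adjusted p = 8.21e-10). Such separation was seen in 13.8% of genes (lower than sub-SCI) and 22.4% (higher than Intact), and 3.09% and 13.3% were DEGs in these directions. Between +PBS-2w and +PBS-4w the ranges overlapped. The +PBS-4w cords were still 17.8-fold above Intact. In +PBS-2w Htr2b was also a DEG higher than Intact (log2 fold change 3.67, SE 0.30, edgeR adjusted p = 1.21e-08), as were 8.84% of genes.

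In +MSC cords Htr2b was lower than in +PBS cords in every library at each week. At 1 wpt, the comparison by which the gene was chosen, it was 6.64, 7.25 and 6.22 CPM in +MSC-1w (mean 6.71 ± 0.52, n = 3) against 23.8 ± 4.22 in +PBS-1w (n = 3). The log2 fold change of -1.83 is given without a test, since it served to choose the gene. At 2 and 4 wpt, whose libraries the choice did not use, the differences were smaller. The +MSC-2w libraries stood at 3.09, 5.83 and 5.45 CPM (log2 fold change -0.83, SE 0.29, unadjusted p = 0.00991 and adjusted p = 0.292 by edgeR). The +MSC-4w libraries stood at 5.57, 7.80, 6.83 and 6.24 CPM, just below the lowest +PBS-4w library (log2 fold change -0.84, SE 0.23, edgeR adjusted p = 0.0405). The mean of the 2 and 4 wpt effects was -0.84 (SE 0.19, 1.79-fold lower, edgeR adjusted p = 0.00866). Htr2b thus had an adjusted p under 0.05 at 4 wpt and over both weeks, and was no DEG. Without +PBS-2w replicate 2 the mean of both weeks was -1.004 (edgeR adjusted p = 0.00506), which made it a DEG. The 4 wpt difference had an edgeR adjusted p over 0.05 in 10 of 26 fits that left out 1 library each (0.0127 to 0.145): without Intact replicate 2, any +MSC-1w replicate, +MSC-4w replicate 1, 3 or 4, or +PBS-4w replicate 2, 3 or 4. Without +PBS-4w replicate 1 the 4 wpt log2 fold change was -0.96 (edgeR adjusted p = 0.0127). The 4 wpt adjusted p was 0.165 with edgeR on the 2 groups alone. For the mean of both weeks it was over 0.05 in 1 of 26 fits, without +PBS-2w replicate 1 (0.146).

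All genes give the background for these counts. At 4 wpt 0.495% of genes were DEGs (all higher) and 4% had an adjusted p under 0.05, and over both weeks 1.1% were DEGs (0.745% higher and 0.356% lower) and 11.6% had an adjusted p under 0.05. At 2 wpt 0% of genes passed either rule, with 2219 genes at an unadjusted p under 0.05. Every library lower, as for Htr2b, was seen in 18.4% of genes at 2 wpt and 4.47% at 4 wpt. The +MSC effect on Htr2b did not differ detectably between 2 and 4 wpt (difference of log2 fold changes -0.01, SE 0.38, edgeR adjusted p = 1). The gene remained above Intact in +MSC cords, with log2 fold changes of 2.84 (SE 0.29) at 2 wpt and 3.31 (SE 0.28) at 4 wpt (edgeR adjusted p = 2.78e-07 and 2.03e-08), where 5.6% and 7.25% of genes were DEGs higher.

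The order of groups for Htr2b ran from sub-SCI (45.2 CPM) through +PBS-1w (23.8), +PBS-4w (11.9), +PBS-2w (8.52), +MSC-1w (6.71), +MSC-4w (6.61) and +MSC-2w (4.79) to Intact (0.660). Neighbours did not overlap between sub-SCI and +PBS-1w, between +PBS-1w and +PBS-4w, and between +MSC-2w and Intact. All other neighbours overlapped.

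Microglia and macrophage markers moved in the same direction as Htr2b after injury. Their summed level over 12 genes was 382 to 553 CPM in Intact and 2869 to 3349 in sub-SCI, and all 12 were above 0 on the log2 fold change scale (10 DEGs higher), while the median over all genes was -0.02. Set against this sum, Htr2b was 1.45 CPM per 1000 marker CPM in Intact (1.11 to 1.71) and 14.9 in sub-SCI (11.2 to 19.4). Between treatments the marker sum overlapped: it was 1387 to 1995 CPM in +MSC-4w and 1546 to 2300 in +PBS-4w, with 0 of 12 markers a DEG and 7 of 12 below 0. At 4 wpt Htr2b per 1000 marker CPM was 3.35 to 4.02 in +MSC and 5.25 to 7.14 in +PBS, without overlap. The log2 difference was -0.68 (two-sided exact permutation test, n = 4 and 4, p = 0.0286, the smallest p this design allows, 0.572 after Benjamini-Hochberg adjustment over 20 such ratio tests). At 2 wpt it was 2.09 to 2.55 in +MSC and 3.33 to 4.29 in +PBS (log2 difference -0.71, exact permutation p = 0.2, the smallest possible with 3 and 2 libraries).

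**Figure D2:**
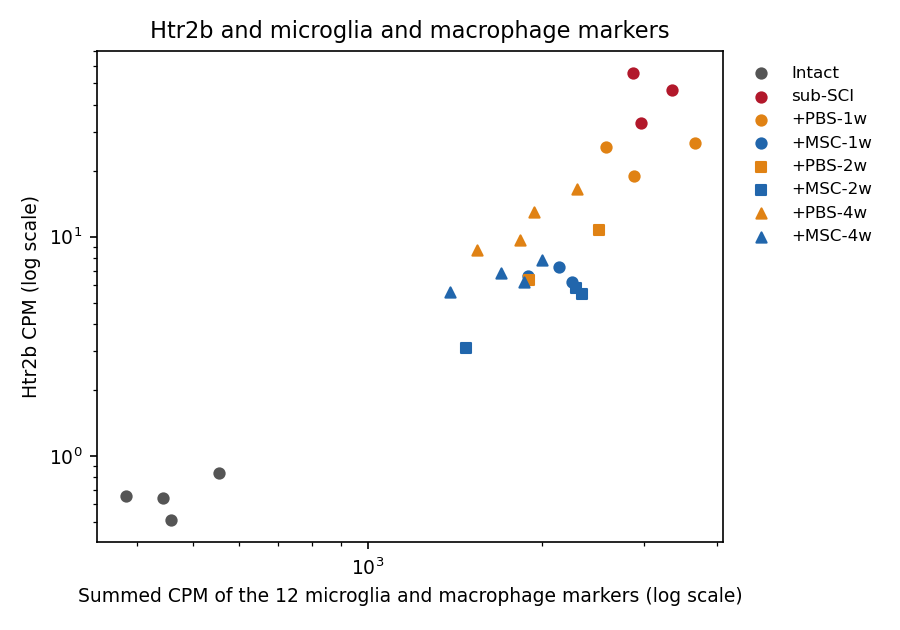
Htr2b CPM (log axis) against the summed CPM of 12 microglia and macrophage markers (log axis), 1 point per library, colored by treatment and shaped by week. At similar marker sums the +MSC-4w libraries (5.57 to 7.80 CPM of Htr2b) lie below the +PBS-4w libraries (8.64 to 16.4).

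Fibroblast and meningeal markers also moved with Htr2b, from a mean sum of 962 CPM in Intact to 12560 in sub-SCI, 4345 in +PBS-4w and 2112 in +MSC-4w over 12 genes. Per 1000 CPM of these markers Htr2b overlapped between +MSC-4w (mean 3.32, from 2.42 to 4.07) and +PBS-4w (mean 3.51, from 1.5 to 6.68). The 6.68 was +PBS-4w replicate 1, which had the lowest sum of these markers in its group (1439 CPM). That library thus raised the +PBS-4w mean ratio and lowered the +PBS-4w mean sum. At 2 wpt the mean ratio was higher in +MSC (6.46, from 2.97 to 8.83) than in +PBS (3.54, from 3.06 to 4.03). At 4 wpt 11 of the 12 were below 0, with 0 DEGs. The summed mast cell and platelet markers (9 genes) were 33.3 CPM in Intact, 122 in sub-SCI, 101 in +PBS-4w and 55.98 in +MSC-4w. Of the 6 tested, the 1 DEG higher in sub-SCI was Pf4, a platelet chemokine. Per 1000 CPM of that sum Htr2b overlapped at 4 wpt, at 103 to 134 in +MSC and 64.6 to 162 in +PBS. The summed T and B cell markers (7 genes) went from 28.6 CPM in Intact to 292 in sub-SCI. They were 156 in +PBS-4w and 172 in +MSC-4w. Against that sum Htr2b did not overlap at 4 wpt (32.6 to 49.8 per 1000 CPM in +MSC, 57.6 to 99.8 in +PBS). The Htr2b ratio to endothelial markers (7 genes) overlapped at 4 wpt, at 12.6 to 22.7 in +MSC and 12.7 to 39.1 in +PBS. The ratio to smooth muscle and pericyte markers (8 genes) also overlapped, with means of 30.2 in +MSC-4w and 46.7 in +PBS-4w. The part of these cell types in the Htr2b difference was not tested. Htr2b overlaps Psmd1, a proteasome subunit gene, on the opposite strand in the RefSeq annotation. The library kit does not mark strand, so reads where these genes overlap cannot be told apart by strand. Psmd1 had log2 fold changes of -0.36 in sub-SCI against Intact and 0.18 in +MSC-4w against +PBS-4w. Whether reads of the pair were shared was not tested.

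The 300 bases around the annotated starts of Htr2b and Htr2c are shown because these genes moved in opposite directions and led the receptor pool in sub-SCI and Intact cords. RefSeq (GRCr8) gives a promoter window, 250 bases before to 50 after the start, for 5 of the 8 members. Capitals mark matches, on either strand, to 5 motifs chosen after the sequences were seen: TGANTCA (AP-1), GAGGAA (a core bound by PU.1, a factor of myeloid cells), GGGCGG (GC box), CCAAT and TATAAA. These motifs do not overlap each other in the windows shown. The Htr2b window is chr9:94204038-94204337 on the minus strand, and the Htr2c window chrX:115452940-115453239 on the plus strand, both printed 5′ to 3′ along the gene.
Htr2b: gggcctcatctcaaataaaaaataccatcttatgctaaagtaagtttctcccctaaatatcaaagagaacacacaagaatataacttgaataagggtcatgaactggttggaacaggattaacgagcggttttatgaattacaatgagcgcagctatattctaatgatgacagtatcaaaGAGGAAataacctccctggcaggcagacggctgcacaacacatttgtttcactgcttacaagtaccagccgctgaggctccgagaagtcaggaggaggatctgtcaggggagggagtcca
Htr2c: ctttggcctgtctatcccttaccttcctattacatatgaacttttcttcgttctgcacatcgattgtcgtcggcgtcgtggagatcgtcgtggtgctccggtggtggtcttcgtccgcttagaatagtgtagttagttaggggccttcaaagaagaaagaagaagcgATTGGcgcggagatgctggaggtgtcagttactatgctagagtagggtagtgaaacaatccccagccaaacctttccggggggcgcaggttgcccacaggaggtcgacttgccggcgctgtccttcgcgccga
The Htr2b window held 1 match, GAGGAA at bases -70 to -65 from the start, and the Htr2c window held 1, CCAAT on the opposite strand at -83 to -79. Of the 33469 promoter windows, 27.6% held GAGGAA and 37.5% CCAAT, so both are common. AP-1, GC box and TATA letters, found in 7.33%, 33.1% and 14.2% of windows, were in neither. The GC content was 43.3% for Htr2b and 53.7% for Htr2c, with a median of 51.7% over all windows.

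Htr2c was the most abundant member in uninjured cord. It stood at 226, 169, 174 and 152 CPM in Intact and at 13.0, 28.6 and 4.48 in sub-SCI, with no overlap. The log2 fold change was -3.56 (SE 0.56, 11.8-fold lower, edgeR adjusted p = 1.21e-05). Htr2a, a receptor through which serotonin excites motor neurons, stood at 17.4, 19.2, 18.7 and 17.4 CPM in Intact and at 4.39, 5.36 and 2.44 in sub-SCI (log2 fold change -2.16, SE 0.37, edgeR adjusted p = 3.48e-05). Both receptors were lower in each sub-SCI library than in any Intact library, as were 34% of all genes.

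The Gi-coupled receptors were lower as well. Htr1a, which dampens neuron firing, stood at 3.16 to 4.58 CPM in Intact and 0.034 to 0.689 in sub-SCI (log2 fold change -3.54, SE 0.68). Htr1b, found on nerve terminals, went from 6.22 to 7.49 CPM in Intact to 0.785 to 1.12 in sub-SCI (-2.87, SE 0.38). Htr1d, a close relative of Htr1b, was scarce, with 19 to 25 reads per Intact library and 11, 5 and 0 in sub-SCI (-2.50, SE 0.65). Htr3a, the channel subunit, went from 7.03 to 9.34 CPM to 0.543 to 2.36 (-2.62, SE 0.58). Their edgeR adjusted p-values lay between 1.38e-06 (Htr1b) and 0.0022 (Htr1d). Htr7 had 1 to 9 reads per Intact library and 0, 4 and 0 in sub-SCI, and no change was testable at this depth.

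Thus 6 of the 7 members tested were DEGs lower in sub-SCI, where 17.5% of all genes were, and Htr2b was the 1 DEG higher. The median log2 fold change was -2.62 over the members and -0.02 over all genes. The 15 neuron markers were also all lower (14 DEGs), with a mean sum of 14330 CPM in Intact and 1833 in sub-SCI. Per 1000 CPM of neuron markers Htr2c was 12.6 ± 1.45 in Intact and 7.87 ± 1.87 in sub-SCI, and Htr2a was 1.27 ± 0.11 and 2.65 ± 1.09.

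**Figure D3:**
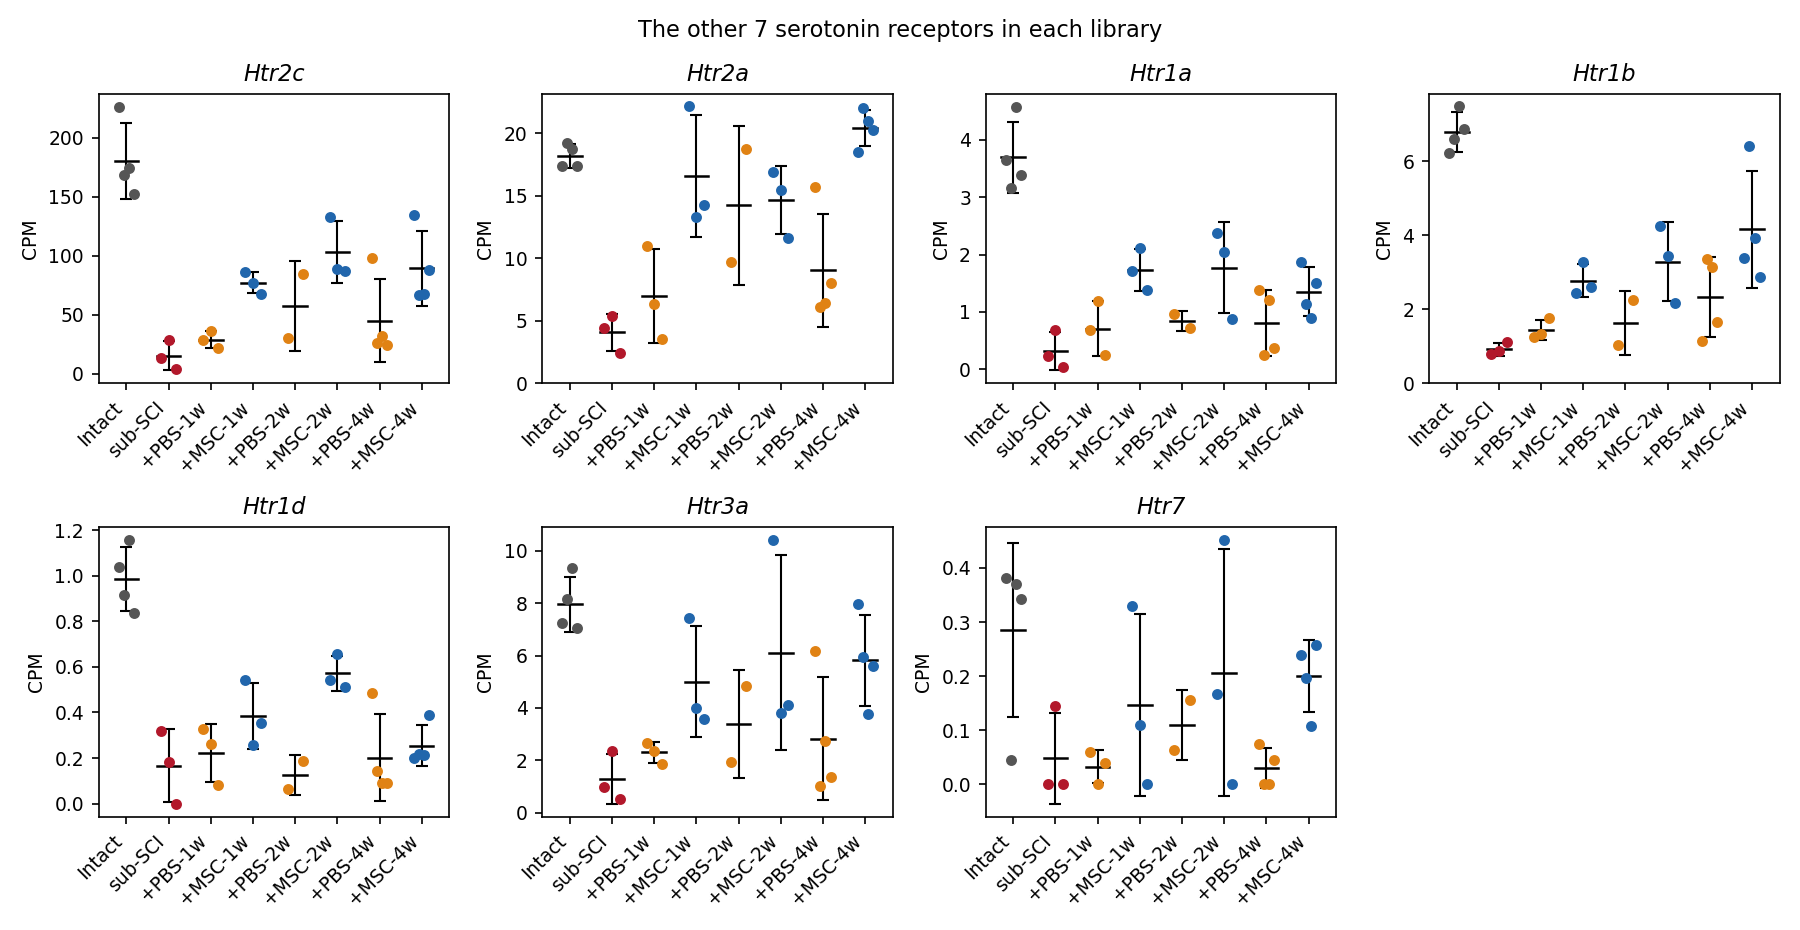
Levels of the other 7 members in each library (TMM-normalised CPM, linear axes from 0, a panel per gene); points are libraries, lines are means and bars are SD. All 7 means are lower in sub-SCI than in Intact, and Htr2c and Htr2a have a +PBS-4w library far above the other 3.

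In +PBS cords fewer members were called lower than Intact at 2 and 4 wpt than at 1 wpt, and the counts were not tested against each other. At 1 wpt all 6 tested members other than Htr2b were DEGs lower than Intact (12.5% of all genes), from -1.38 for Htr2a to -2.63 for Htr2c on the log2 scale. That count was 6 in 7 of 26 fits that left out 1 library, 5 in 7 and 4 in 9, the latter including those without any Intact library. It was 3, 3 and 2 without +PBS-1w replicate 1, 2 or 3. At 2 wpt 2 members, Htr1b (-2.05) and Htr1d (-2.92), were DEGs lower (5.66% of all genes). The count at 2 wpt was 0 without +PBS-2w replicate 1, and 1 without +PBS-2w replicate 2 or Intact replicate 1, 2 or 3. At 4 wpt 4 were DEGs lower (10.7% of all genes): Htr1a (-2.20), Htr1b (-1.55), Htr1d (-2.23) and Htr2c (-2.0). Without +PBS-4w replicate 1 the count at 4 wpt was 6. Htr2a and Htr3a had log2 fold changes of -1.01 and -1.49 at 4 wpt (edgeR adjusted p = 0.0122 and 0.0151). Against sub-SCI, 0 members were DEGs higher in +PBS-4w (4.28% of all genes), and Htr1b, Htr2a and Htr2c had an adjusted p under 0.05, as did 25.1% of all genes (log2 fold changes of 1.33, 1.15 and 1.56, edgeR adjusted p = 0.0113, 0.023 and 0.0303). Leaving out sub-SCI replicate 2, +MSC-4w replicate 2, +PBS-2w replicate 1 or 2, or +PBS-4w replicate 1 made this count 1.

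In +MSC cords 1, 0 and 0 members were DEGs lower than Intact at 1, 2 and 4 wpt. Against Intact, Htr1b at 1 wpt (-1.29, SE 0.35, edgeR adjusted p = 0.00734) was the 1 DEG lower among them (2.63% of all genes), and that call was lost when any 1 Intact or +MSC-1w library was left out. At 2 and 4 wpt 0 were DEGs lower by edgeR (0.461% and 1.53% of all genes), and Htr1b at 2 wpt and Htr1a and Htr1d at 4 wpt had an adjusted p under 0.05, as did 19.1% and 31.2% of all genes at 2 and 4 wpt. Without sub-SCI replicate 3 or +PBS-4w replicate 1 the count at 4 wpt was 1. Htr2a at 4 wpt was 18.5, 21.97, 20.9 and 20.2 CPM, overlapping the Intact range of 17.4 to 19.2. Against sub-SCI, 4 members were DEGs higher in +MSC-4w (10.2% of all genes): Htr2a (2.33, SE 0.37), Htr2c (2.54, SE 0.53), Htr1b (2.17, SE 0.37) and Htr3a (2.17, SE 0.57). Htr2b was the 1 DEG lower (-2.77, SE 0.25, 6.1% of all genes).

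Tested directly, +MSC against +PBS, all 6 tested members other than Htr2b had log2 fold changes above 0 at each week, with medians of 1.18 at 1 wpt without Htr2b and, with Htr2b, 0.85 at 2 wpt and 0.84 at 4 wpt, beside medians near 0 over all genes (-0.00, 0.00 and -0.04). By edgeR 0 of them were DEGs at 1, 2 or 4 wpt, where 0.0111%, 0% and 0.495% of all genes were. At an adjusted p under 0.05 there was 1 member higher at 4 wpt, Htr2a, and 1 over the mean of 2 and 4 wpt, Htr1b. Of all genes, 4% and 11.6% passed this rule in either direction.

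Htr2a at 1 wpt was 22.2, 13.3 and 14.2 CPM in +MSC-1w and 11.0, 6.38 and 3.52 in +PBS-1w (log2 fold change 1.24, SE 0.37, edgeR adjusted p = 0.115). At 2 wpt the groups overlapped, at 16.9, 15.5 and 11.6 CPM in +MSC-2w and 9.73 and 18.7 in +PBS-2w (0.04, SE 0.41). At 4 wpt all +MSC libraries were above all +PBS libraries, which stood at 15.7, 6.07, 6.40 and 7.98 CPM (1.17, SE 0.32, edgeR adjusted p = 0.0423), a separation seen in 6.08% of all genes. Without +PBS-4w replicate 1, the highest of these, the log2 fold change was 1.56 and Htr2a was a DEG (edgeR adjusted p = 0.00362). The adjusted p, rounded to 3 digits, was 0.05 or above in 15 of 26 fits that left out 1 library, up to 0.125 without +PBS-4w replicate 2. Those were the fits without any Intact replicate, sub-SCI replicate 1, +MSC-1w replicate 2 or 3, +MSC-2w replicate 2, any +MSC-4w replicate, or +PBS-4w replicate 2, 3 or 4.

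Htr2c at 1 wpt was 85.9, 77.4 and 68.0 CPM in +MSC-1w and 29.0, 36.4 and 21.8 in +PBS-1w, without overlap (1.41, SE 0.53, edgeR adjusted p = 0.176). At 2 wpt it was 133, 89.2 and 87.4 CPM against 30.6 and 84.3 (0.85, SE 0.59), and again every +MSC library was higher, as for 18.6% of all genes. At 4 wpt it was 134, 66.4, 68.0 and 88.4 CPM against 98.0, 26.5, 31.7 and 24.2 (0.98, SE 0.45, edgeR adjusted p = 0.201). The overlap at 4 wpt came from +PBS-4w replicate 1, without which the log2 fold change was 1.67 (edgeR adjusted p = 0.0115) and the mean of 2 and 4 wpt was 1.26 (adjusted p = 0.00814), which made Htr2c a DEG there.

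Among the Gi-coupled members, Htr1b gave the most even differences: 0.93 (SE 0.38), 1.007 (SE 0.42) and 0.84 (SE 0.32) at 1, 2 and 4 wpt, and 0.93 (SE 0.27, edgeR adjusted p = 0.0294) over the mean of 2 and 4 wpt. Without +PBS-2w replicate 1, +MSC-2w replicate 1 or +MSC-2w replicate 2 that adjusted p was 0.275, 0.0778 and 0.0544. Htr1a had log2 fold changes of 1.29, 1.08 and 0.75 (SE 0.64, 0.72 and 0.55). Htr1d had 0.75, 2.14 and 0.28 (SE 0.68, 0.82 and 0.62), on 2 to 18 reads a library. Htr3a had 1.12, 0.85 and 1.03 (SE 0.57, 0.64 and 0.49, edgeR adjusted p = 0.305, 0.596 and 0.212). Without +PBS-4w replicate 1 the 4 wpt difference of Htr3a was 1.74 (edgeR adjusted p = 0.0173), that of Htr1d 1.14 (0.238), that of Htr1a 1.13 (0.196) and that of Htr1b 0.60 (0.183). Leaving out +PBS-4w replicate 2 gave 0.44 for Htr1a, leaving out +MSC-4w replicate 2 gave 0.55 for Htr1b, and leaving out +MSC-4w replicate 4 gave 0.034 for Htr1d. Every library of +MSC was above every library of +PBS at 1 wpt for Htr1a, Htr1b, Htr2a, Htr2c and Htr3a, a pattern seen in 15.3% of all genes. Htr7, not tested, had 6, 9, 3 and 6 reads in +MSC-4w and 2, 0, 0 and 1 in +PBS-4w.

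**Figure D4:**
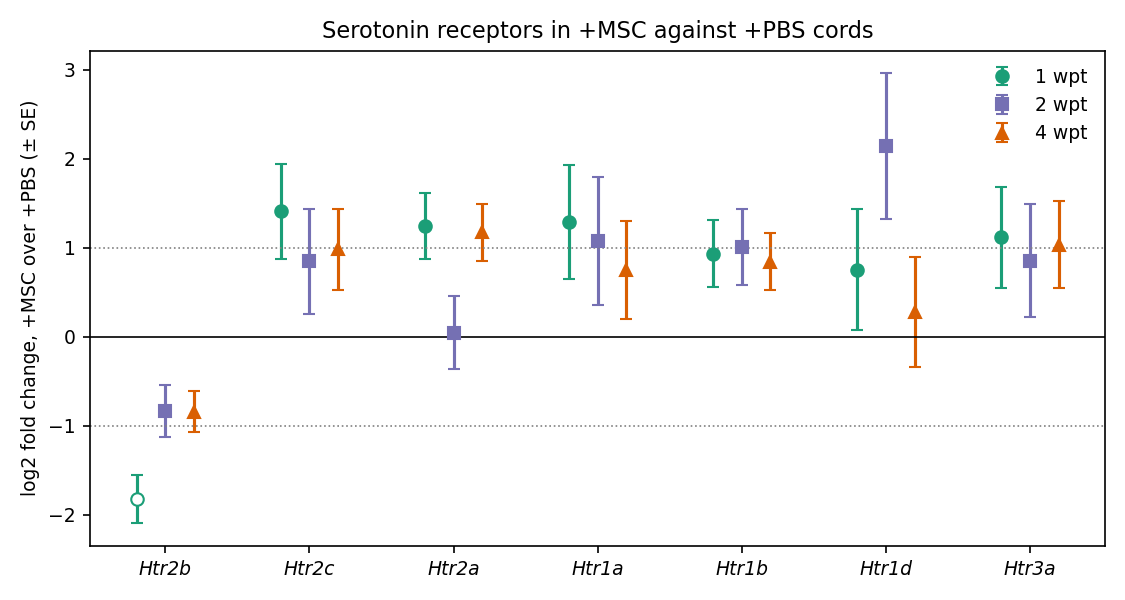
Log2 fold change of each tested member in +MSC over +PBS at 1, 2 and 4 wpt, with bars of ± SE and dotted lines at -1 and 1. Htr2b lies below 0 and the other 6 above 0 at each week, and the open symbol is the week 1 comparison by which Htr2b was chosen.

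The effect did not differ detectably between weeks for any member: 0 of 7 members had an adjusted p under 0.05 by edgeR for the difference between 2 and 4 wpt, and 0 of 6 for the differences from 1 wpt, where 0% of all genes did. The smallest unadjusted p was 0.0396, for Htr2a between 4 and 2 wpt. Neuron markers moved with these receptors. All 15 were above 0 in +MSC against +PBS at each week, with mean sums of 7007, 9159 and 8614 CPM in +MSC and 2638, 5074 and 3944 in +PBS at 1, 2 and 4 wpt, and 0 DEGs at each week (2 had an adjusted p under 0.05 at 4 wpt). The +PBS-4w sum was 8047 CPM in replicate 1 and 2246 to 3075 in the others, whose mean was 2576. The part of the neuron markers in the receptor differences was not tested. Set against this sum, the Htr2c means were close: 11.7 ± 3.62 in +MSC-1w and 11.7 ± 3.11 in +PBS-1w, 11.2 ± 0.30 and 10.7 ± 2.59 at 2 wpt, and 10.4 ± 3.59 and 11.3 ± 2.34 at 4 wpt, per 1000 marker CPM. Over the 6 members and 3 weeks, the log2 difference of these ratios ran from -0.81 (Htr2a, 2 wpt) to 1.47 (Htr1d, 2 wpt), and 0 of 18 had an exact two-sided permutation p under 0.05, where the design could reach no lower than 0.1 at 1 wpt, 0.2 at 2 wpt and 0.0286 at 4 wpt.

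Because genes differ in length, the make-up of the receptor pool was read in RPKM (CPM per kilobase of gene length). Summed over the 8 members it was 57.6 ± 7.18 in Intact and 28.9 ± 6.10 in sub-SCI. Htr2c made up 71.0% ± 3.91 of the Intact pool and Htr2b 0.594% ± 0.18. In sub-SCI the shares were 12% ± 8.03 for Htr2c and 79.1% ± 11.2 for Htr2b. At 4 wpt Htr2b held 30.8% ± 12.5 in +PBS and 9.97% ± 2.83 in +MSC, with ranges of 13.6% (replicate 1) to 41.1% and 6.23% to 12.3%, and Htr2c held 42.8% ± 13.2 and 56.9% ± 8.67. Without +PBS-4w replicate 1 the +PBS shares were 36.6% ± 6.04 for Htr2b and 36.4% ± 3.92 for Htr2c. At 1 wpt, the week that chose Htr2b, its share was 52.5% in +PBS and 11.2% in +MSC. By mean RPKM in Intact, Htr2c (41.1 ± 7.29) was followed by Htr1b (4.42), Htr3a (3.97), Htr2a (3.94), Htr1a (2.91), Htr1d (0.877), Htr2b (0.335) and Htr7 (0.086).

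**Figure D5:**
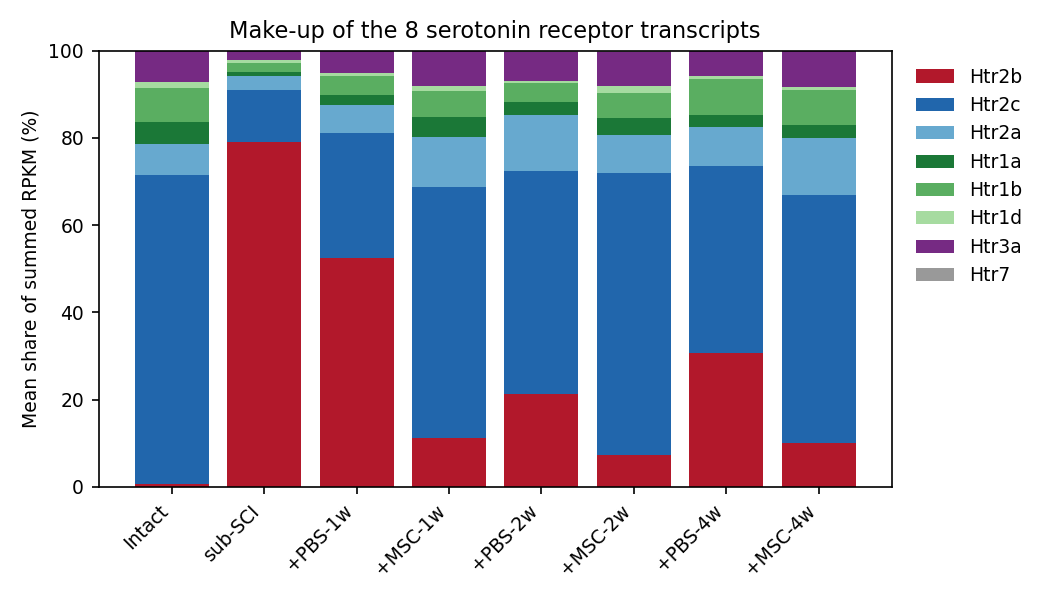
Mean share of each member in the summed RPKM of the 8 serotonin receptors (percent, stacked bars to 100) by group. Htr2c makes up 71.0% in Intact and Htr2b 79.1% in sub-SCI, and the Htr2b share is smaller in +MSC than in +PBS at each week.

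Of 5 tested serotonin receptors that are not members, 4 were DEGs lower in sub-SCI and 0 higher, beside 17.5% and 16.6% of all genes. Htr1f, Htr4, Htr5a and Htr6 passed (log2 fold changes of -2.55, -3.11, -3.47 and -1.48), while Htr5b had a log2 fold change of -1.58 (SE 0.85) and Htr3b was too low to test. Htr4, which couples to Gs, was the 1 DEG between treatments among these 5 tested receptors, at 4 wpt, where 0.495% of all genes were DEGs. It stood at 1.51, 1.05, 1.00 and 1.12 CPM in +MSC-4w (26 to 48 reads) and 0.075, 0.141, 0.403 and 0.275 in +PBS-4w (2 to 9 reads). Every +MSC-4w library was higher, as for 6.08% of all genes (log2 fold change 2.40, SE 0.48, edgeR adjusted p = 0.00874). At 2 wpt the log2 fold change was 0.17 (SE 0.57). The 4 wpt difference stayed above 2 on the log2 scale, but was no DEG in 18 of 26 fits that left out 1 library (adjusted p up to 0.0476, without +PBS-4w replicate 2). It was also no DEG with edgeR on the 2 groups (adjusted p = 0.0604). Htr1f reached 1.21 at 4 wpt (SE 0.34, edgeR adjusted p = 0.049), with an adjusted p over 0.05 in 21 of 26 fits that left out 1 library (0.0365 to 0.161, the highest without +MSC-4w replicate 1). Htr5a and Htr6 had 1.08 and 0.86 (edgeR adjusted p = 0.107 and 0.131). Without +PBS-4w replicate 1 Htr5a had 1.24 (edgeR adjusted p = 0.0485), Htr4 2.08 (0.00855), Htr1f 0.90 (0.0487) and Htr6 0.75 (0.155).

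Transcripts of Tph2 and Slc6a4 were scarce in the cord. Tph2, the rate-limiting enzyme of neuronal serotonin synthesis, was 1.84 ± 0.96 CPM in Intact and 0.226 ± 0.31 in sub-SCI (log2 fold change -3.04, SE 1.00, edgeR adjusted p = 0.0115). It stood at 1.27 ± 0.50 in +MSC-4w and 0.517 ± 0.87 in +PBS-4w (1.26, SE 0.82, edgeR adjusted p = 0.373). The +PBS-4w libraries held 1.83, 0.106, 0.045 and 0.092 CPM (1 to 3 reads in all but replicate 1), and the +MSC-4w libraries 0.874 to 1.97. Without +PBS-4w replicate 1 Tph2 was a DEG higher in +MSC-4w (3.85, edgeR adjusted p = 0.0062), on a group of 1 to 3 reads a library. Slc6a4, the serotonin transporter, was 0.545 ± 0.45 CPM in Intact and 0.505 ± 0.20 in sub-SCI, a log2 fold change of -0.15 (SE 0.52). Of 15 tested genes of serotonin synthesis, transport and breakdown, 2 were DEGs higher and 5 lower in sub-SCI (16.6% and 17.5% of all genes), and 0 were DEGs between +MSC and +PBS at any week.

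Of 21 tested G protein and effector genes, 4 were DEGs higher and 11 lower in sub-SCI, where 16.6% and 17.5% of all genes were (median -1.12, beside -0.02 over all genes), and of 6 binding partners and editing enzymes 1 was higher and 3 lower. Plcb2, a phospholipase C of blood cells, rose from 4.96 to 59.0 CPM (log2 fold change 3.56), and the inhibitory G protein subunits Gnai2 and Gnai3 rose by 1.14 and 1.22. S100a10, an adaptor that binds Htr1b and brings it to the surface, rose by 2.25. In the other direction were Kcnj3, the potassium channel that Htr1a opens (-3.34), Adcy5, an adenylyl cyclase (-1.66), Adarb1, an enzyme that edits Htr2c RNA (-2.45), and Ric3, a chaperone of Htr3a and nicotinic receptors (-2.10). Their edgeR adjusted p-values lay between 7.61e-10 and 3.57e-08. Between +MSC and +PBS, 0 of these 27 genes were DEGs at any single week, and Kcnj3 was a DEG over the mean of 2 and 4 wpt (1.04, SE 0.23, edgeR adjusted p = 0.00878), a call lost in 20 of 26 fits that left out 1 library, the largest adjusted p being 0.132 without +PBS-2w replicate 1.

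Genes with the most similar profile were sought by Pearson's r of log2 CPM over the 26 libraries, which share injury, depth and cell content, so r is a description. Those most like Htr2b were Tmem86a (r = 0.985), a lysoplasmalogenase, Ctsa (0.985), the lysosomal enzyme cathepsin A, Coro1b (0.978), an actin regulator, Gpx1 (0.978), a glutathione peroxidase, and Smpdl3a (0.978), a phosphodiesterase related to acid sphingomyelinase. Over the 22 libraries of injured rats they were Pgm2 (0.968), Ctsl (0.966), Folr2 (0.966), P4hb (0.965) and Tmem86a (0.962). Folr2, a folate receptor of macrophages, was 1.95 ± 1.10 CPM in Intact, 213 ± 30.4 in sub-SCI, 53.4 ± 11.97 in +PBS-4w and 36.4 ± 2.83 in +MSC-4w.

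Among the other members, Htr2c was most like Slc6a5 (r = 0.990), the glycine transporter of inhibitory neurons, Smim17 (0.990) and Nat8l (0.989), the enzyme that makes N-acetylaspartate. Htr2a was most like Arhgap36 (0.963), Slc18a3 (0.958) and Chat (0.952), of which Slc18a3 and Chat are the vesicular transporter and the synthase of acetylcholine, which motor neurons use. Chat was 39.4 ± 9.37 CPM in Intact, 5.37 ± 3.03 in sub-SCI, 17.0 ± 2.81 in +PBS-4w and 40.6 ± 3.69 in +MSC-4w. Htr3a was most like Gabra5 (0.961), a GABA receptor subunit, Hpca (0.960), a calcium sensor, and Gad1 (0.958), which makes GABA. Htr1a was most like Grm7 (0.946), Htr5a (0.945) and Wscd2 (0.945). For Htr1b the leading genes were Gcc2 (0.935), Gnl3l (0.933) and Epm2aip1 (0.932), and for Htr1d Gpr137 (0.924) and Vwc2 (0.923). Among members, r with Htr2b ran from -0.72 (Htr2a) to -0.87 (Htr2c) over 26 libraries, and Htr2c and Htr3a had r = 0.946.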

How the data were processed

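Poly(A) RNA of 26 rat cord segments was sequenced as paired reads (NEBNext Ultra kit, which does not mark strand). According to the methods and the submitters' processing notes, the authors trimmed reads with Trim Galore 0.5.0, removed human reads against GRCh38 and mapped what remained with HISAT2 2.1.0 against Rnor6. SAMtools 1.9 was used to sort the reads and, by the methods, to keep those mapped as proper pairs. Reads per gene were counted with featureCounts 1.6.4. The deposited values are raw counts per gene as the authors made them, with no normalization. The annotation release and the strand setting are not given in the sources used here. The joint table of 32883 genes held the same counts as the 26 library files.

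Groups were taken from the GEO labels, which give 2 +PBS-2w and 3 +MSC-2w libraries. The methods instead give 2 for +MSC-2w and 3 for +PBS-2w by implication, so each 2 wpt value rests on the labels. The study's results section speaks of 3 +MSC-2w samples, as the labels do. It also describes 1 +PBS-2w sample as an outlier that grouped with the +MSC-2w samples. The labels do not say that replicates came from separate rats (the methods call them biological), so p-values measure the spread between these libraries. The counts were filtered with filterByExpr, TMM-normalised and fitted with edgeR 4.0.16 (R 4.3.3) in 1 model of 8 groups, and p-values were adjusted over 17990 genes. The fitting was tested on simulated data. The log2 CPM behind Pearson's r used a prior count of 2, and fold changes used the default prior count of edgeR. The SE of a fold change is its absolute log2 value divided by the square root of the F statistic. RPKM divides CPM by the gene length of the table. Marker ratios were compared by two-sided exact permutation tests over libraries. Alternatives were DESeq2 1.42.0, size factors, filters, 2-group fits, a replicate block, a term for replicate 1, a prior count of 0.5 and leaving out each library. The marker-ratio comparisons, for Htr2b and for the other members, were not among the planned tests and were added after seeing the data.

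The members and gene lists were chosen with earlier results of these data known. Named were all members, the other serotonin receptors, Tph2, Slc6a4, up to 8 pathway DEGs with the smallest adjusted p, and the genes with the highest Pearson's r (5 for Htr2b, 3 for each other tested member). One gene that this rule names is not reported here. Promoter windows came from RefSeq (GRCr8). Protein sequences were not used here. Figures were drawn with matplotlib 3.10.9.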

Additional observations from a re-analysis of the deposited data

Results flagged for a closer look

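In groups of 4 libraries, 6 of 42 gene and group pairs had a highest or lowest library set apart from the other 3 by Dixon's criterion, which chance meets in about 1 in 20. Htr2c in +PBS-4w replicate 1 stood at 97.96 CPM (2629 reads), above 24.2 to 31.7 in the other 3. The other 5 pairs rest on few reads. Htr1d stood apart at 0.4844 CPM (13 reads) in +PBS-4w replicate 1 and at 0.3871 CPM (9 reads) in +MSC-4w replicate 4. Htr7 was low in Intact replicate 2, at 0.04581 CPM (1 read). Htr3b was at 0.09176 CPM (2 reads) in +PBS-4w replicate 4 and at 0.6557 CPM (30 reads) in +MSC-4w replicate 2, where the next +MSC-4w library had 1 read. What sets these libraries apart was not tested.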

How the results depend on the processing

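Counts are of members called, beside the value in the report, and the cause of each shift was not tested. With DESeq2 on all libraries, members lower in +PBS-2w than Intact were 4 (report 2), lower in +MSC-4w than Intact 1 (0), higher in +MSC-4w than +PBS-4w 1 (0) and higher in +PBS-4w than sub-SCI 2 (0). With DESeq2 on the 2 groups compared, they were 5 lower in +PBS-2w, 3 in +MSC-1w (1), 1 in +MSC-2w (0) and 2 in +MSC-4w than Intact, and 1 higher in +MSC than +PBS at 1 wpt (0) and 1 at 4 wpt. With edgeR on the 2 groups, 3 were lower in +MSC-1w and 2 in +MSC-4w than Intact. An adjusted p under 0.05 with any fold gave 4 lower in +PBS-2w, 1 in +MSC-2w and 2 in +MSC-4w than Intact, 3 higher in +PBS-4w than sub-SCI, and 1 higher and 1 lower in +MSC than +PBS at 4 wpt and over the mean of both weeks. Without a filter, 1 was lower in +PBS-2w and 0 in +MSC-1w. At least 10 counts in every library leaves 5 members tested, with 1 lower in +PBS-2w and 2 in +PBS-4w (4). A term for replicate 1 gave 1 lower in +MSC-4w than Intact and 1 higher in +PBS-4w than sub-SCI.

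Of the 5 genes most like Htr2b, 1 was shared over injured libraries and 3 with a prior count of 0.5, and of 18 for the other members 11 and 15. Same-numbered libraries correlated at 0.131, -0.009 and 0.076 between +MSC-1w and +PBS-1w. Between +MSC-2w and +PBS-2w they did so at -0.078 and -0.055, and for the 4 pairs of +MSC-4w and +PBS-4w r was 0.171, 0.233, 0.016 and 0.186. Replicate 1 pairs were over 0.1 in 9 of 12 comparisons. Every pair was over 0.1 in 0 of the 12, so the pairing was taken as a shared number only. The replicate block gave 1 member higher in +PBS-4w than sub-SCI (0), Htr1b, and Htr2b differences of -0.93 at 2 wpt and -0.82 at 4 wpt. With the block Htr4 was no DEG at 4 wpt (2.40, edgeR adjusted p = 0.0127).

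Leaving out 1 library, members lower than Intact ranged from 2 to 6 in +PBS-1w, 0 to 3 in +PBS-2w, 3 to 6 in +PBS-4w, and 0 to 1 in +MSC-1w and +MSC-4w. Members higher in +PBS-4w than sub-SCI ranged from 0 to 1, as did those higher in +MSC than +PBS at 4 wpt and those higher or lower over the mean of both weeks. Htr2b over both weeks ranged from -1.004 to -0.63. Directions turned for Htr1d in +PBS-4w (-0.64 to 1.18) and +MSC-4w (-0.011 to 1.46) against sub-SCI, for Htr2a in +PBS-2w (-0.90 to 0.067) and +MSC-1w (-0.40 to 0.0032) against Intact and in +MSC-2w against +PBS-2w (-0.35 to 0.59), for Htr4 in +MSC-2w against +PBS-2w (-0.40 to 1.18), and for Slc6a4 in sub-SCI against Intact (-0.49 to 0.63, and 0.30 with the replicate block). Htr1d and Htr7 are limited by depth, at 0 to 25 reads a library.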
